A study of Mus musculus with 6 samples.

Results

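The Dnmt1 knockdown library was compared with the control library, cytosine by cytosine, in E14 mouse embryonic stem cells. Both were reduced representation bisulfite sequencing (RRBS) libraries, in which genomic DNA is cut with MspI at CCGG sites, so that mainly CpG-rich fragments are read. The shDnmt1 group expressed a short hairpin RNA against Dnmt1 and the shControl group a control hairpin, with 1 library in each. Members were all autosomal cytosines with a methylation level in both libraries, matched on chromosome, position and strand, which gave 409044 cytosines, or 55.8% of the autosomal cytosines listed in any of the 6 libraries of the series. The other libraries carried hairpins against Dnmt3a, Dnmt3b, both of these, or Tet1 and Tet2.

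Dnmt1 is the maintenance DNA methyltransferase, which copies CpG methylation onto the new strand after each round of replication. It is recruited to half-methylated CpGs by Uhrf1, whereas Dnmt3a and Dnmt3b set methylation at sites that lack it. Mouse embryonic stem cells survive and divide with very little DNA methylation, which makes them a common model for loss of this enzyme. Bisulfite conversion reads 5-methylcytosine and 5-hydroxymethylcytosine alike.

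With 1 library in each group, no difference had a replicate check and none was tested. The SD given beside a value is the spread over the 19 autosomes of the same library or pair of libraries, and is no measure of error between cultures. The files give fractions with no read counts, so the depth behind each level is unknown. Neither Dnmt1 transcript nor protein was measured here, so the knockdown itself could not be checked. The shDnmt1 sample is titled with a hairpin called Dnmt1a, and its group was taken from its treatment, a hairpin against Dnmt1. The cell type could not be checked. The promoters of the pluripotency genes Sox2 and Fgf4 could be placed. Sox2 averaged 0.0417% in shDnmt1 and 0% in shControl, while Fgf4 stood at 0% in both. These levels cannot tell cell types apart, since 95.5% of all promoters placed averaged under 1% in shDnmt1 and 88.9% in shControl.

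The promoters below show where the loss was read at 4 methylated genes. Each is the 300-base window from 250 bases before to 50 after a start of the gene. It is from RefSeq (GRCm38.p6), written 5′ to 3′ on the strand of the gene. Capitals mark CpGs with a level in both libraries. Positions are those of the mm9 build of the files, found by matching CpG spacing and neighbouring bases to the listed cytosines. Dazl (chr17:50432896-50433195, minus strand) encodes an RNA-binding protein of germ cells, Asz1 (chr6:18059012-18059311, minus strand) a germ cell protein of the piRNA pathway, and Tex101 (chr7:25457020-25457319, minus strand) a surface protein of germ cells. Commd1 (chr11:22872817-22873116, minus strand) is a gene whose intron holds the imprinted Zrsr1.
Dazl: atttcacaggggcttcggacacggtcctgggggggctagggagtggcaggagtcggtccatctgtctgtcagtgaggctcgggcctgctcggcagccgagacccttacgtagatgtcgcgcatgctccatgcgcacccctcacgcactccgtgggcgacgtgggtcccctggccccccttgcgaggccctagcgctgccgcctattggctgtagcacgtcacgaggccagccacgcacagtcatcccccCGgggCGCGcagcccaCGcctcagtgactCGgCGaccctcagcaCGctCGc
Asz1: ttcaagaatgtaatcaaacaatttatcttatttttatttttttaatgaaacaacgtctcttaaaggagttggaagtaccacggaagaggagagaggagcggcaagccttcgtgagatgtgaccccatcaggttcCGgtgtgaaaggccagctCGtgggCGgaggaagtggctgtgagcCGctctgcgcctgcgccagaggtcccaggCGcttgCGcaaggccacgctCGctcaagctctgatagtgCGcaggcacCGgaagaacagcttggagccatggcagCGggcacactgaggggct
Tex101: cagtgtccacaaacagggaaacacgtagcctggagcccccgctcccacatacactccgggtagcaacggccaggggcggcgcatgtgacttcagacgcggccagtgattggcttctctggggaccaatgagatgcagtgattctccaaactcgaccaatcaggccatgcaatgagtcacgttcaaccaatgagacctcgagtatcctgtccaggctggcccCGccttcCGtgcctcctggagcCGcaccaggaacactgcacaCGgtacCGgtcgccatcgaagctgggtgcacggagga
Commd1: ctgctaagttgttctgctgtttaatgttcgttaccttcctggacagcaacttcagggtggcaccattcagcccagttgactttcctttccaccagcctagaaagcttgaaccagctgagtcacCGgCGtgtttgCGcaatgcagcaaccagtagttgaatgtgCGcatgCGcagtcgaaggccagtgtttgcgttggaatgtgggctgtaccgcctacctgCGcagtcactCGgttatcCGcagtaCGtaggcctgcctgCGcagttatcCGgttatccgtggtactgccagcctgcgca

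Over the 409044 cytosines the mean methylation level was 5.23% ± 0.392 in shDnmt1 and 25.05% ± 1.39 in shControl (SD over 19 autosomes). The mean difference was -19.8 ± 1.08 percentage points, so that shDnmt1 held 20.9% ± 0.880 of the shControl level. The mean was lower in shDnmt1 on 19 of 19 autosomes, and the level remaining lay between 19.8% on chromosome 11 and 22.6% on chromosome 13. A level of exactly 0 was given for 61.2% of cytosines in shDnmt1 and 50.04% in shControl. A level above 80% was given for 0.127% in shDnmt1 and 18.3% in shControl.

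To describe the loss by starting level without choosing cytosines on either compared library, classes were set on the shDnmt3b library. The 73992 high cytosines, above 80% there, averaged 20.1% ± 0.816 in shDnmt1 and 88.1% ± 0.414 in shControl, a difference of -68.0 ± 0.536 points. The quartiles and median were 11.8, 17.9 and 25.8% in shDnmt1 and 84.4, 89.3 and 93.0% in shControl, so the distributions were almost apart. Of these cytosines 2.28% lay above 50% in shDnmt1 and 99.8% in shControl. The level remaining at high cytosines was 22.8% ± 0.840.

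The 54705 intermediate cytosines, at 20 to 80% in shDnmt3b, averaged 9.09% ± 0.387 in shDnmt1 and 55.0% ± 0.903 in shControl. The level remaining was 16.5% ± 0.582, below that of the high cytosines. The 259659 low cytosines, under 20%, averaged 0.310% in shDnmt1 and 1.29% in shControl, with 23.9% ± 1.99 remaining, and 86.3% of them stood at 0 in shDnmt1 and 73.1% in shControl.

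**Figure D1:**
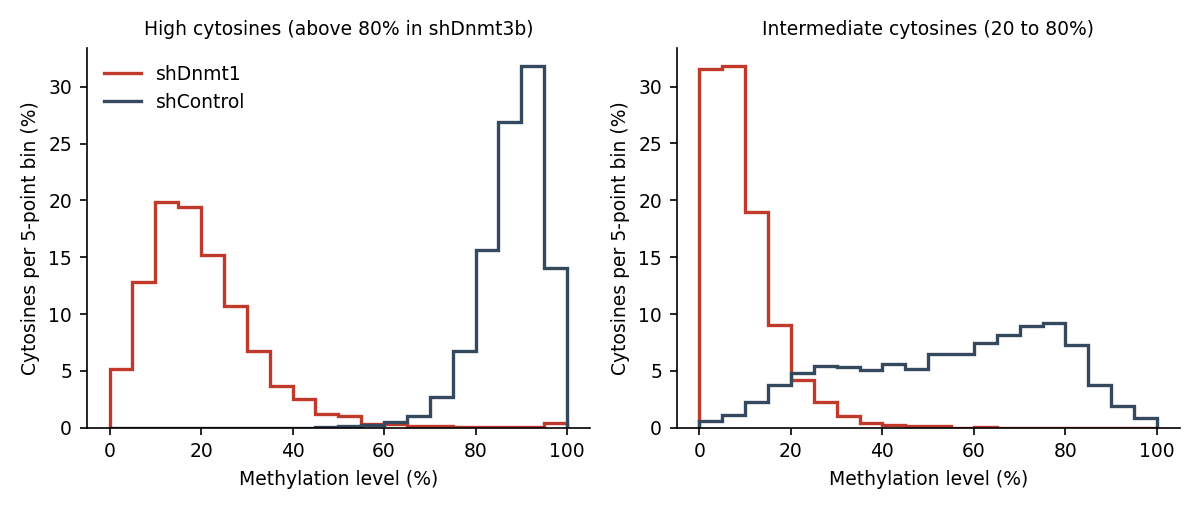
Distribution of methylation levels (x axis, percent, in 5-point bins) as the share of cytosines per bin (y axis, percent) in shDnmt1 and shControl, for high cytosines (left) and intermediate cytosines (right). High cytosines had a median of 17.9% in shDnmt1 and 89.3% in shControl.

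A cytosine was called lower or higher where the libraries differed by at least 20 points. Of the 409044 cytosines 127062 were lower in shDnmt1, which is 31.1%, and 47 were higher, which is 0.0115%. Among high cytosines 99.1% were lower by that much. The 47 cytosines called higher averaged 45.5% in shDnmt1 and 20.1% in shControl, with medians of 31.2% in shDnmt1 and 8.60% in shControl, and 17 of them lay within 100 bp of another.

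In steps of 10 points of the shDnmt3b level, the level remaining in shDnmt1 was 26.5% in the lowest step, 16.0% at 60 to 70%, and 26.0% in the highest step. By this ratio of means the least was left in the middle of the range. The ratio in the lowest step rests on very low levels, with means of 0.202% in shDnmt1 and 0.762% in shControl. With the median of ratios per cytosine, the low class kept 0%. The shDnmt3a library, set against the same control, had 39.4% remaining in the lowest step and 94.0% in the highest, and the library with hairpins against Dnmt3a and Dnmt3b had 42.2% and 96.2%.

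**Figure D2:**
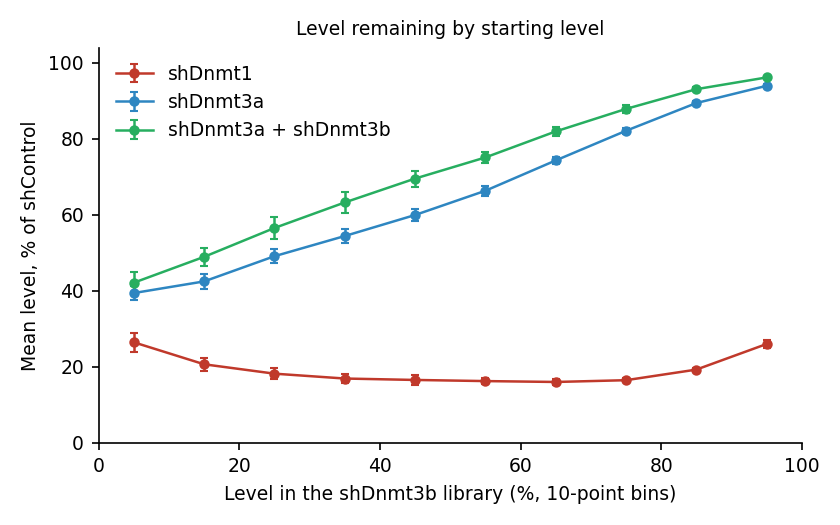
Level remaining, as percent of the shControl mean (y axis), in 10-point steps of the shDnmt3b level (x axis, percent), with bars for the SD over 19 autosomes. The shDnmt1 line is lowest at 16.0% and ends at 26.0%, while the shDnmt3a and double knockdown lines end at 94.0% and 96.2%.

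The Dnmt1 library stood apart from the de novo knockdowns in size. Over the 374528 cytosines with a level in all libraries compared, the mean was 5.37% in shDnmt1, 21.6% in shDnmt3a, 22.7% in the double knockdown and 25.6% in shControl. The differences from shControl were -20.3 ± 1.08 points for shDnmt1, -4.02 ± 0.318 for shDnmt3a and -2.93 ± 0.302 for the double knockdown. With recurring CpG spacings left out, an alternative chosen after seeing the data that takes out 39662 of the 73992 high cytosines and many low ones, they were -35.3 points for shDnmt1, -6.30 for shDnmt3a and -4.55 for the double knockdown. At high cytosines 22.8% of the control level remained in shDnmt1, 91.9% in shDnmt3a and 94.7% in the double knockdown. At low cytosines the values were nearer, with 23.98% in shDnmt1, 40.8% in shDnmt3a and 45.1% in the double knockdown. These comparisons share 1 control library, and no difference between them was tested.

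The shDnmt1 file listed fewer cytosines, 445016 over all chromosomes against 588220 in shControl. Of the high cytosines with a level in shControl and shDnmt3b, 41.9% were not listed in shDnmt1, against 14.3% of the low ones. High cytosines averaged 88.7% in shControl where shDnmt1 had no level and 88.1% where it had one. The part of this uneven listing in the results was not tested.

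The bases beside the CpG went with how much remained. Context is the 5 bases centred on the cytosine, read on the strand of the cytosine, so the CpG always stands at the same place. Bases before are counted from the cytosine and the base after from the end of the CpG. By the base 2 before the position, high cytosines kept 26.2% with T, 24.1% with C, 20.9% with A and 19.8% with G, and T stood above each of the others on 19 of 19 autosomes. By the base 1 before, they kept 24.96% with A, 23.7% with T, 22.9% with C and 20.3% with G. The order at both positions changed with CCGG cytosines left out. At 2 before, C and T then kept 26.14 and 26.11%. At 1 before, C was then highest at 26.0%, above A at 24.96%. By the base 1 after the CpG, all high cytosines kept 26.1% with C, 23.3% with A, 22.5% with T and 22.1% with G. C stood above A and G on 19 autosomes and above T on 18.

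Whole contexts spread further than single bases. The contexts TACGC and TCCGC kept 33.3% ± 5.84 and 33.3% ± 3.86, over 282 and 892 cytosines. At the other end GGCGG kept 16.6% ± 1.57 over 1468 cytosines and GGCGT 17.0% over 894. Intermediate cytosines had T first at 2 before, at 18.7%, and G last, at 14.3%. In shDnmt3a the levels remaining by the base after lay between 89.2% with T and 92.4% with G, so C was not highest there. In the double knockdown C was highest, at 95.2%, and T lowest, at 93.4%. By the base 2 before, G was lowest in shDnmt3a, at 91.1%, and in the double knockdown, at 94.0%, as in shDnmt1. The highest base there was A in each, at 92.3% and 95.4%, and not T.

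The level remaining also went with CpG density, counted as listed cytosines within 100 bp. High cytosines with 0 neighbours kept 20.6%, those with 3 to 4 kept 23.95%, and those with 10 or more kept 25.5% ± 6.11. Nearly all isolated high cytosines, 12304 of 12374, lay in CCGG, the MspI site, against 84 of 595 with 10 or more neighbours. Within CCGG the level remaining was 20.6% with 0 neighbours, 24.9% with 5 to 6, and 23.9% ± 10.6 with 10 or more. Outside CCGG it was 21.1% with 1 neighbour, 24.8% with 5 to 6, and 25.8% ± 6.55 with 10 or more. The 70 isolated cytosines outside CCGG kept 27.9% ± 13.3, which goes against a rise with density. Intermediate cytosines kept 14.8% with 0 neighbours and 18.8% with 10 or more.

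**Figure D3:**
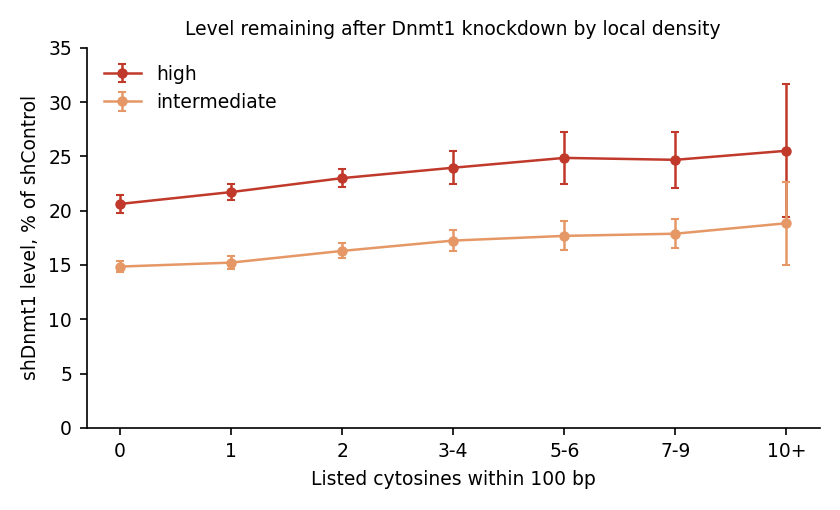
Level remaining in shDnmt1 as percent of shControl (y axis) by the number of listed cytosines within 100 bp (x axis), for high and intermediate cytosines, with bars for the SD over 19 autosomes. High cytosines kept 20.6% with 0 neighbours and 25.5% with 10 or more.

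Along the chromosomes most stretches kept a like share. In 428 bins of 5 Mb the median level remaining at high cytosines was 22.8%, with the 5th and 95th percentiles at 19.7 and 28.1%. The highest bin, the first 5 Mb of chromosome 9, kept 44.2% over 269 cytosines. There 322 cytosines at positions 3000032 to 3090478 averaged 35.8% in shDnmt1 and 79.0% in shControl, and without that stretch, bounded after its values were seen, the bin kept 28.9% over 50 cytosines.

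At 701 CpGs that were high on both strands, the strands could be set against each other. Their levels differed with an SD of 18.7 points in shDnmt1 and 7.54 points in shControl. A gap of at least 40 points was found at 3.71% of these CpGs in shDnmt1 and at 0% in shControl. Pearson's r between strands, as a description over 701 CpGs of 1 library, was 0.27 in shDnmt1 and 0.35 in shControl. The strand means were 22.3 and 21.8% in shDnmt1 and 89.2 and 88.8% in shControl, so the spreads belong to unlike levels. Read depth is unknown, and the part of read counting in these gaps was not tested.

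Cytosines at most 100 bp apart were joined into 24341 clusters of at least 5, with a median of 9 cytosines over 124 bp. Lower in shDnmt1 by at least 20 points, with 80% of cytosines in that direction, were 5700 clusters, or 23.4%, and 0 were higher. Of 4771 clusters at 50% or more in shDnmt3b, 4726 were called lower. Their median level remaining was 20.4%, with the 5th and 95th percentiles at 9.26 and 39.8%. A cluster on chromosome 10, positions 116712454 to 116712584, averaged 6.24% in shDnmt1 and 98.6% in shControl.

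A small group kept much of its methylation: 110 of the 4771 clusters held at least 50% of the shControl level, and 3 held more than all of it. The highest lay on chromosome 3 at 54615277 to 54615318, with 78.8% in shDnmt1 and 70.4% in shControl. Another, on chromosome 11 at 38722959 to 38723002, had 63.0% in shDnmt1 and 56.9% in shControl.

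Several clusters that kept most shared an arrangement of CpGs, which was picked out after their values were seen and is described without a test. The clusters just named on chromosomes 3 and 11 are not among its copies. The other of the 3 above the shControl level is a copy, on chromosome 18 at 17598594 to 17598637. On 1 strand, a cytosine in the context CCCGG was followed by one in ACCGC at 24 bases from it, one in TCCGC at 39 bases, one in CGCGC at 41 bases and one in CGCGA at 43 bases. At least 4 of the 5 cytosines were found at 59 places on 19 autosomes. These copies averaged 32.5% ± 23.1 in shDnmt1 and 57.2% ± 25.05 in shControl (SD over 59 copies). The level remaining ran from 13.01 to 104.9%, with a median of 47.2%, and 25 copies kept at least 50%. By position the 5 cytosines kept 47.6, 57.9, 61.6, 57.3 and 55.0%, against 22.5, 26.8, 32.2, 25.5 and 28.9% at high cytosines of the same contexts elsewhere. These sets differ in starting level, since the copies were not limited to high cytosines. By position the copies averaged 45.6 to 70.3% in shControl, and the high cytosines elsewhere 87.9 to 89.8%. How reads that match several places were treated is not given in the sources used here.

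**Figure D4:**
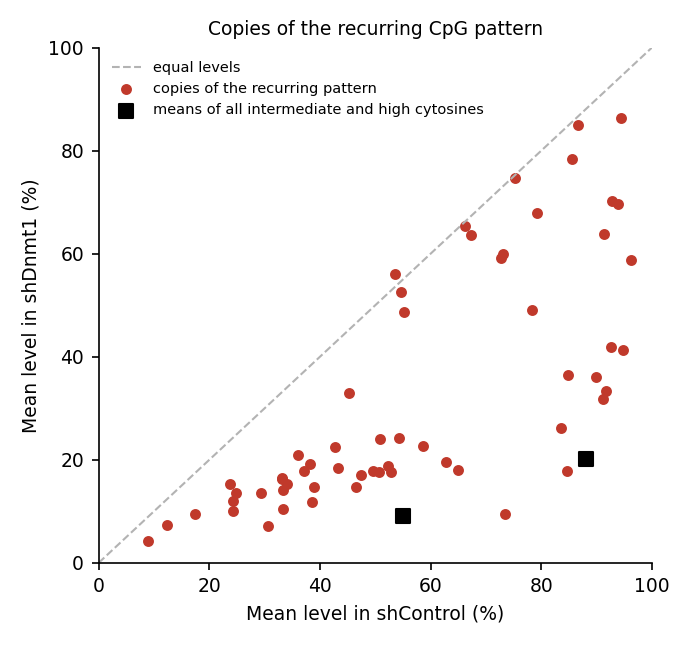
Mean level of each of the 59 copies of the recurring CpG pattern in shDnmt1 (y axis, percent) against shControl (x axis, percent), with the dashed line for equal levels and black squares for the means of all intermediate and all high cytosines. The copies spread between 4.2 and 86.4% in shDnmt1, and several lie near the dashed line.

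Single cytosines that stayed fully methylated were also found. Of the 73992 high cytosines 469 lay above 80% in shDnmt1, and 299 stood at 100%. Of these, 241 stood at 100% in all 6 libraries. Neighbours within 100 bp were then looked at, leaving out any that also stood at 100% in all 6 libraries. Such other neighbours were listed for 182 of the 241, and averaged 53.6% in shDnmt1 and 83.6% in shControl. These means are therefore lowered by construction, and 182 is not the number with any listed neighbour.

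Promoters could be placed for 4660 autosomal genes with at least 5 cytosines in both libraries. Lower by at least 20 points in shDnmt1 were 64 of them, or 1.37%, and 0 were higher. A mean under 1% was found at 95.5% of promoters in shDnmt1 and 88.9% in shControl, so few had methylation to lose. The 44 promoters at 50% or more in shDnmt3b kept between 6.89 and 36.8%, with a median of 19.8%. The 157 promoters at 5 to 20% averaged 1.48% in shDnmt1 and 7.44% in shControl, and 154 were lower.

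Germline genes, many of which are kept silent outside germ cells by promoter methylation, were the listed group with most to lose. Of 56 listed genes 13 could be placed, and 6 were lower by at least 20 points, against 1.37% of all promoters placed. Methylation at 20% or more in shDnmt3b was found at 9 of the 13, and these kept 11.9 to 32.7%, with a median of 22.7%. Of all 4660 promoters placed, 82 reached that level, and these kept 2.96 to 36.8%, with a median of 20.1%. The share kept by the germline promoters thus lay inside the range of all methylated promoters.

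The Tex101 promoter averaged 21.3% in shDnmt1 and 86.0% in shControl over 5 cytosines. Dazl averaged 18.7% in shDnmt1 and 82.6% in shControl over 8 cytosines. In the Dazl sequence above, the first capital CpG, 1 base before the start, had 8.30% in shDnmt1 and 57.4% in shControl, and the last, 47 bases after it, had 33.3% in shDnmt1 and 94.4% in shControl. At both genes every cytosine was lower in shDnmt1, as were 99.6% of all high cytosines. All 8 Dazl cytosines are on 1 strand, and cytosines of 1 strand and fragment share reads.

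Asz1 averaged 12.3% in shDnmt1 and 68.3% in shControl over 11 cytosines, which ran from 7.0 to 19.8% in shDnmt1 and from 50.6 to 82.8% in shControl. Fkbp6, a meiotic chromosome protein that stands on both the germline and the imprinted list, averaged 19.01% in shDnmt1 and 79.8% in shControl. Slc25a31, an ADP/ATP carrier of male germ cells, averaged 8.28% in shDnmt1 and 44.2% in shControl. Hormad1, a protein of the meiotic chromosome axis, averaged 7.37% in shDnmt1 and 36.6% in shControl.

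Less methylated germline promoters were also lower in shDnmt1. Hormad2, a relative of Hormad1, averaged 1.52% in shDnmt1 and 21.4% in shControl. Meioc, a meiotic regulator, averaged 0.825% in shDnmt1 and 4.84% in shControl. Ddx4, a germ cell RNA helicase named after its values were seen, averaged 2.51% in shDnmt1 and 21.1% in shControl. Ddx25, named after its values were seen, was the exception, at 0.467% in shDnmt1 and 0% in shControl.

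**Figure D5:**
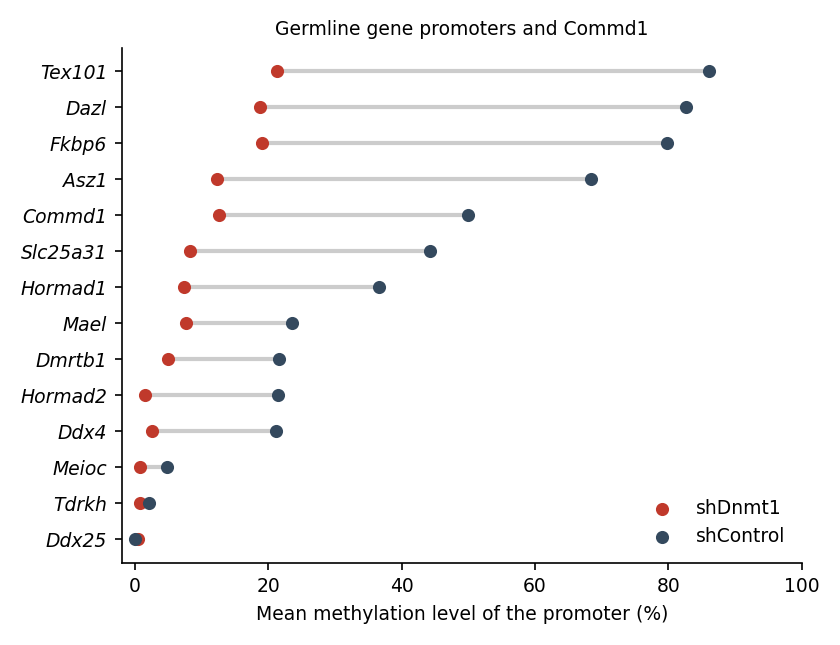
Mean methylation level of germline gene promoters and Commd1 (x axis, percent), with 1 point for shDnmt1 and 1 for shControl on each row and a grey line between them. The shDnmt1 point lies left of the shControl point on every row but that of Ddx25, and Tex101 has 21.3% in shDnmt1 and 86.0% in shControl.

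Imprinted genes carry methylation on 1 parental copy, so a level near 50% is usual at their control regions. Of 38 listed genes 6 could be placed, and 2 were lower by at least 20 points, Fkbp6 and Commd1, against 1.37% of all promoters placed. They were the only 2 of the 6 found at 20% or more in shDnmt3b. Commd1 averaged 12.7% in shDnmt1 and 49.9% in shControl over 11 cytosines. Its cytosines ran from 6.40 to 22.8% in shDnmt1 and from 46.3 to 52.6% in shControl. All of them were lower in shDnmt1, as were 99.2% of all intermediate cytosines. The promoters of Zdbf2 and Grb10 were under 1% in both libraries.

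The other lists with promoters placed had 0 lower by 20 points, and none of the tissue-restricted genes listed could be placed. Among 11 developmental regulators placed, the signalling gene Wnt1 averaged 0.555% in shDnmt1 and 3.91% in shControl. Among 4 trophoblast genes, the transcription factor Gata2 averaged 0.292% in shDnmt1 and 6.46% in shControl. The promoter of Dnmt1 itself averaged 0.0154% in shDnmt1 and 0% in shControl over 26 cytosines. All 8 housekeeping promoters placed and both pluripotency promoters were under 1% in both libraries.

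Among the 44 promoters at 50% or more in shDnmt3b, those that kept least were Vmn2r29, a putative pheromone receptor, with 5.24% in shDnmt1 and 76.0% in shControl, and Acta1, skeletal muscle actin, with 4.98% in shDnmt1 and 71.9% in shControl. P2rx1, an ATP-gated channel, had 4.08% in shDnmt1 and 53.7% in shControl. Itpr3os and Gm52066 kept 8.53 and 9.89%. Of the same 44, those that kept most were Smarca5, a chromatin remodeller, with 22.6% in shDnmt1 and 61.4% in shControl, and Zfp629, with 13.5% in shDnmt1 and 40.4% in shControl. Aknaos, Topaz1 and 4930594O21Rik kept 33.3, 29.7 and 27.8%.

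Letters of known motifs were counted in the promoter windows on both strands. The letters TCCCGC, part of an E2F6 motif, were in 4 of the 9 methylated germline promoters, against 23.2% of the 82 methylated promoters, 48.0% of the 4660 placed and 19.975% of all 32851 windows. The E-box CACGTG was in 5 of the 9, against 14.6% of the 82, 11.6% of the 4660 and 7.15% of all windows. Neither count was tested.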

How the data were processed

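The authors deposited 1 file per library, holding the methylation level of single CpG cytosines as a fraction with 3 decimals, strand and 5 bases of context. Libraries were MspI-cut, bisulfite converted with an EpiTect kit and sequenced on a HiScanSQ, per the labels' protocols. CASAVA 1.8, Bismark 0.10.1 and mm9 are named, without a role, per the submitters' processing notes. The sources used here do not give the coverage minimum, trimming or duplicate treatment. The deposited fractions carry no coverage, so thinly and deeply read cytosines weigh alike and no counting interval can be given. Cytosines without a level were left out.

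Fractions were turned into percent and joined on chromosome, position and strand with Python 3.11.15 and pandas 2.3.3. Level remaining is 100 times the shDnmt1 mean over the shControl mean. Promoters (RefSeq, GRCm38.p6, 32851 sequences) were placed by exact and unique match of CpG spacing and context, with no conversion of coordinates. Where several windows of a gene were placed, the window with most cytosines in both libraries was kept, which need not be its main start. Of 7606 placements with at least 5 cytosines, 99.7% fell on the chromosome of the gene. Named promoters were, per list, up to 6 methylated ones by shDnmt3b level and up to 3 unmethylated ones by number of cytosines, plus the 5 highest and 5 lowest in level remaining among those at 50% or more. The scripts were tested on simulated data. Members and lists were chosen with earlier results of these data known. Alternatives covered thresholds, minimum cytosines, class settings and left-out sets.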

Additional observations from a re-analysis of the deposited data

Results flagged for a closer look

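Data outside the autosomes held 1 signal above the control. On the mitochondrial chromosome 108 cytosines averaged 0.0574% in shDnmt1 and 0% in shControl. Of these, 3 had a level above 0 in shDnmt1, the highest at 3.3%. The difference was not tested.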

How the results depend on the processing

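Of 105 alternatives over 28 results, 79 moved a value by less than its spread or a count by less than 1.5 times. Another 26 moved it by more. A change of sign was looked for only in the mean differences from shControl, and 0 were found. A changed order of bases was not counted. No paired analysis was possible because each group has 1 library, and no replicate could be left out. A coverage minimum was planned but not run, since the deposited files give no coverage. The mean difference was -14.0 points with CCGG cytosines left out. With the median of ratios per cytosine, the level remaining was 0% for low, 14.5% for intermediate and 20.3% for high cytosines, and with classes set on shControl it was 25.9% for low ones. Cytosines higher numbered 288 at 10 points and 9 at 30 points. Clusters lower numbered 16804 with at least 3 cytosines, 543 with at least 10 and 3666 with a gap of 50 bp, and 1 was higher at 10 points and 1 with at least 3 cytosines. Promoters lower numbered 161 with at least 3 cytosines, 19 with at least 8, and 108 at 10 points.

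With CCGG left out, high cytosines kept 26.1% with C at 2 before and 26.0% with C at 1 before. The order of the bases at these positions changed with it. The alternatives that follow were chosen after seeing the data. With CCGG left out, high cytosines with 0 neighbours kept 27.9%. Leaving out same-strand spacings that occur at least 10 times removed 39662 of the 73992 high cytosines and many low ones. High cytosines then kept 22.5% with C, 18.6% with G and 25.2% with T at 2 before, 21.3% with C at 1 before and 21.0% with G at 1 after. Under it the differences from shControl were -35.3 points for shDnmt1, -6.30 for shDnmt3a and -4.55 for the double knockdown, by construction over another mix of cytosines. Leaving out only the 59 copies of the recurring pattern, tried later with those values known, gave -20.3 points for shDnmt1, -4.01 for shDnmt3a and -2.93 for the double knockdown. Depth is unknown, so small differences at single cytosines cannot be judged.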
